A study of Mus musculus with 12 samples.

Results

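Fast myosin heavy chains and sarcomere proteins of skeletal muscle were among the transcripts with higher m6A signal in inguinal white adipose tissue (iWAT) of cold-exposed mice. The 6 genes Myh1, Myh2, Myh4, Neb, Xirp2 and Des held 8 of the 739 differential m6A sites, which lay in 574 genes, and all 8 were in the table of sites higher in cold. The genes were chosen by name because they had a site in these tables, so their direction, fold and p describe the selection and were not tested. Among all sites, 40.7% were higher in cold, and among genes with sites in 1 direction only, 37.1% were. Of the 8 member sites, 3 belonged to the fast myosins and 5 to Neb, Xirp2 and Des, called filament and scaffold genes here.

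The study compared iWAT, the subcutaneous fat pad of the groin, of male C57BL/6 mice (C57BL/6J in the methods of the study) about 8 weeks old housed for 7 days either in the cold, at 4 °C, or at thermoneutrality, at 30 °C. RNA was read by MeRIP-seq, in which fragments carrying N6-methyladenosine (m6A) are pulled down with an antibody (m6A IP) and sequenced beside untouched RNA (input). There were 12 libraries, with 3 m6A IP and 3 input libraries at each temperature. No genetic change or drug was named for either temperature. The tables call the groups C and T, which were read as cold and thermoneutral from the sample titles. Under that reading Ucp1, the uncoupling protein of thermogenic fat, had 1 higher and 0 lower sites.

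Each site came with a fold, which is the linear ratio of cold over thermoneutral signal for a higher site, a p-value and an FDR (the false discovery rate), all as the authors deposited them. These are values of a finished comparison. Values of single libraries were not analysed here, so the depth is unknown and no fold carries an SD or n. It is not stated whether the input libraries entered the comparison, so a fold can hold the amount of a transcript as well as its methylation. In bulk tissue, fewer cells of a type and less RNA per cell cannot be told apart either.

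As background, m6A is set on mRNA by a methyltransferase complex around METTL3, mostly on an adenosine inside a short motif whose commonest core is GGAC, and it lies mainly near stop codons, in 3′ UTRs and in long internal exons. The sarcomere is the contractile unit of striated muscle. Myosin heavy chains form its thick filaments and pull on actin thin filaments, and giant and scaffold proteins set filament length and tie the filaments to the Z disc. Myh1, Myh2 and Myh4 encode the IIx, IIa and IIb heavy chains of fast skeletal muscle fibres and lie next to each other in a cluster of skeletal muscle myosin genes. Fat cells are not known for sarcomeres, and an inguinal pad lies next to muscle.

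The sequences below are the GGAC windows of the 3 fast myosin sites, shown because they were the places where sites and neighbouring gene copies could be compared base by base. They were read on the transcribed strand of the reference genome GRCm38 (mm10), with T for U and GGAC in capitals. The antibody marks a fragment and not a base, so none of these GGAC is known to be methylated in these libraries.
Myh1 exon 27, chr11:67215099-67215122, plus strand: aaatgcgcagGGACctggaggagg
Myh1 exon 27, chr11:67215162-67215185, plus strand: agaagcacgcGGACagcgtggctg
Myh2 exon 27, chr11:67189500-67189523, plus strand: aaatgcgcagGGACctggaggagg
Myh2 exon 27, chr11:67189563-67189586, plus strand: agaagcatgcGGACagcgtggccg
Myh4 exon 33, chr11:67256335-67256358, plus strand: agagcacgctGGACgccgagatcc

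The first window was identical in Myh1 and Myh2. The second differed at 2 bases, written as T8C and C23T, with the Myh2 base first, the position counted from the 5′ end of the window, and the Myh1 base last. These were all the GGAC in the 3 myosin sites.

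Myh1 (Entrez gene 17879) had 1 site, at chr11:67214918-67215307, which covered the whole of coding exon 27 of 40. Its fold was 11.6 (log2 3.54), with a p of 3.71e-06 and an FDR of 2.93e-05 in the authors' deposited table. Myh2 (17882) had 1 site, at chr11:67189319-67189708, the whole of its exon 27 of 40. The Myh2 fold was 14.6 (log2 3.87), with a p of 2.27e-06 and an FDR of 1.83e-05. Both are the same exon of the gene family, 390 bp long and spanning codons 1120 to 1249 of 1942, in the rod of the myosin tail. Myh4 (17884) had 1 site, at chr11:67256187-67256495, the whole of exon 33 of 39, a 309 bp exon for codons 1553 to 1655 of 1939, also in the rod. Its fold was 10.8 (log2 3.43), with a p of 9.17e-06 and an FDR of 6.93e-05. The 3 folds lay close together, from 10.8 to 14.6, near the median of 11.8 over all 301 higher sites.

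Neb (17996) encodes nebulin, the giant protein that runs along the thin filament and helps to set its length. It is read from the minus strand, and it had 2 sites 42890 bases apart, both whole coding exons of 312 bp. The site at chr2:52287044-52287355 was exon 37 of 157, for codons 1325 to 1428 of 7152. It had a fold of 169 (log2 7.40), a p of 2.15e-08 and an FDR of 2.90e-07. The site at chr2:52243842-52244153 was exon 69, for codons 3273 to 3376, and had a fold of 6.61 (log2 2.73), a p of 6.09e-06 and an FDR of 4.69e-05. Exon 37 ranked 38th and exon 69 ranked 232nd by fold among the 301 higher sites. Thus the largest and the smallest fold of the 6 genes came from the same transcript. Signals at each temperature were not analysed here. Whether the fold of 169 rests on a very low thermoneutral signal was not tested.

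Xirp2 (241431) encodes an actin-binding protein with Xin repeats that lies at Z discs and at the ends of muscle fibres. Both of its sites were in exon 7 of 9, a single coding exon of 9265 bp, and they were 241 bases apart. The first, chr2:67512202-67512580, covered codons 1596 to 1722 of 3784 and had a fold of 6.91 (log2 2.79), with a p of 2.69e-06 and an FDR of 2.15e-05. The second, chr2:67512822-67513200, covered codons 1802 to 1928 and had a fold of 8.11 (log2 3.02), with a p of 4.04e-07 and an FDR of 3.66e-06. They were 2 intervals of 379 bp in the middle of a very long exon, with 4293 bases of it before the first and 3973 after the second.

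Des (13346) encodes desmin, the intermediate filament protein that links Z discs to each other and to the membrane, and that is also made in smooth muscle and mural cells. Its site, chr1:75367462-75367960, lay in the last exon, 9 of 9, in the 3′ UTR, and began 415 bases past the last coding base. It was 499 bp long and had a fold of 9.05 (log2 3.18), a p of 1.58e-07 and an FDR of 1.55e-06. Of the 8 sites this was the one outside coding sequence.

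The median fold was 11.6 over the 3 fast myosin sites and 8.11 over the 5 filament and scaffold sites, with ranges of 10.8 to 14.6 and of 6.61 to 169. In the order of folds, 4 of the 5 filament and scaffold sites lay below all 3 myosins and 1, exon 37 of Neb, lay above them. With no spread between animals, none of these neighbours in the order could be told apart. Over all 8 sites the median was 9.92, against 11.9 over the 293 other higher sites. The smallest fold listed anywhere was 4.01 and the largest p was 9.65e-06, so the Myh4 site, with a p of 9.17e-06, stood just inside the limit of the tables and the lowest fold, that of Neb exon 69, stood above it.

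**Figure D1:**
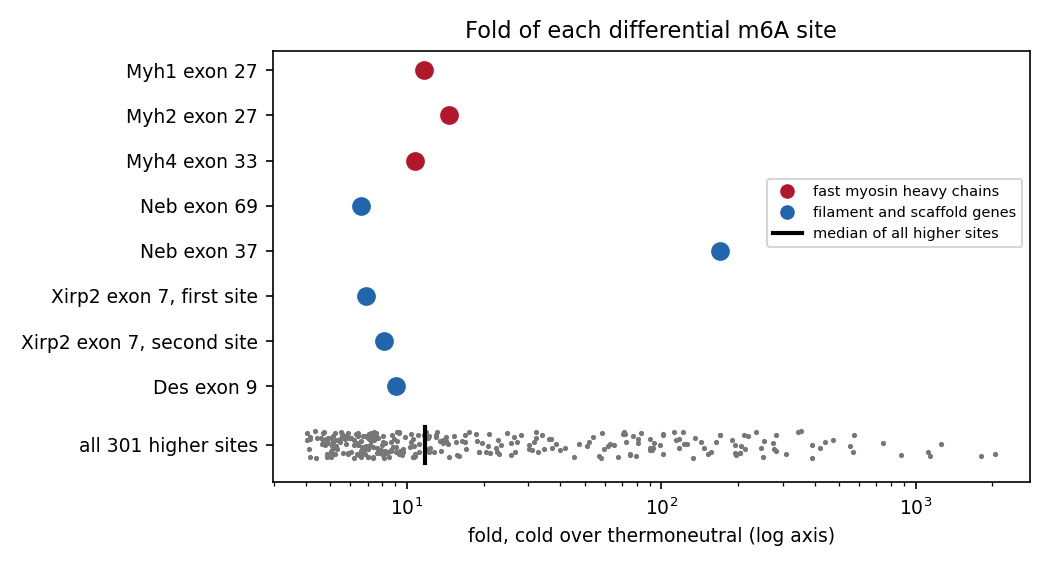
Fold of each of the 8 sites, cold over thermoneutral, on a log axis, with the 301 higher sites of the whole series below and their median (11.8) as a bar. The 3 fast myosin sites lie near that median, 4 filament and scaffold sites lie under it, and exon 37 of Neb stands at 169.

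Sites in these 6 transcripts were mostly coding, unlike the rest. By their midpoint, 7 of the 8 (87.5%) lay in coding sequence and 1 in a 3′ UTR. Among the 632 other sites whose midpoint lay in coding sequence or a UTR of the transcript used, 34.7% were coding and 63.3% were in a 3′ UTR. Coding placement was not particular to the 6 genes. Among the other muscle genes described below, the strongest sites of Ttn, Trdn, Srl and Pygm were coding too. Those of Tpm1, Casq1 and Jph1 lay in a 3′ UTR, and those of Tpm2 and Atp2a1 in a 5′ UTR. The difference was not tested, because sites of a gene share a transcript and the genes were picked for having sites. Of the 8, 5 (62.5%) began and ended exactly at the limits of an exon, against 24 of 576 other sites that lay in a single exon (4.17%) and 14 of 198 other coding ones (7.07%).

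All 8 sites lay inside a single exon. Over the tables, 584 of 739 sites lay inside a single exon of the transcript used here. The shortest site in the tables was 300 bp, and most exons of the fast myosins are far shorter, with a median of 132 bp in Myh1, 132 bp in Myh2 and 137 bp in Myh4. Each of the 3 genes has 3 exons of at least 300 bp, which hold 16.6% of the Myh1, 16.6% of the Myh2 and 16.8% of the Myh4 transcript. One of the 3 carried a site in each gene. Neb has 18 such exons of 157, holding 27.1% of its bases, Xirp2 has 2 of 9, holding 92.8%, and Des has 2 of 9, holding 73.8%. Of the 31 long exons of the 6 genes, 7 carried a site. A site inside a single exon could not lie in a shorter one, since the shortest listed site was 300 bp.

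**Figure D2:**
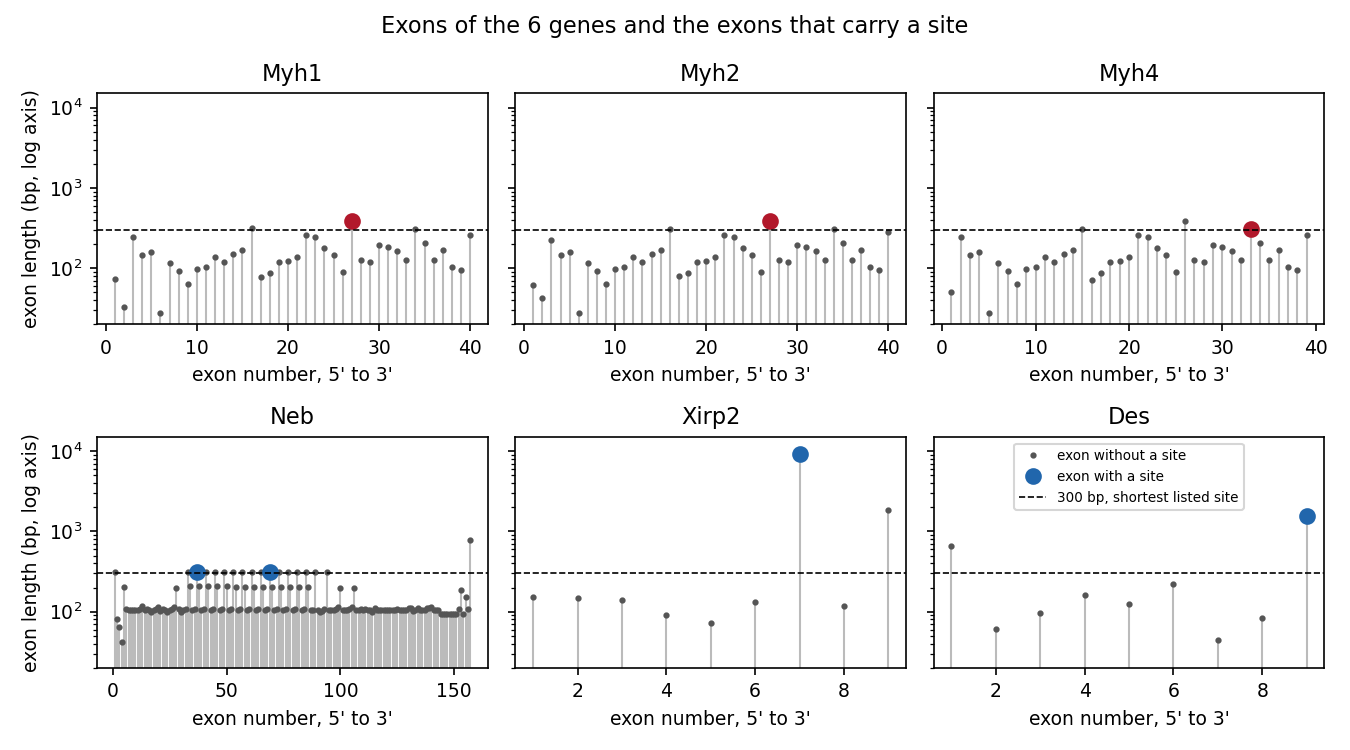
Exon length (log axis, bp) along each of the 6 transcripts, with the exons that carry a site as large coloured points and the shortest listed site length of 300 bp as a dashed line. All 7 exons with a site lie above that line, as an exon that holds a whole site must. Most exons of Myh1, Myh2, Myh4 and Neb lie under it.

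Within the fast myosins, the site did not fall on the same exon in all 3 genes. Myh4 has its own copy of the 390 bp exon, exon 26, which was identical to that of Myh1 at 96.4% of bases and to that of Myh2 at 95.6%, and Myh1 and Myh2 were identical to each other at 95.1%. Exon 26 of Myh4 held 2 GGAC at the same positions, yet no site was listed there. It is shown because its windows matched those of exons with a site.
Myh4 exon 26, chr11:67253335-67253358, plus strand: aaatgcgcagGGACctggaggagg
Myh4 exon 26, chr11:67253398-67253421, plus strand: agaagcacgcGGACagcgtggctg
Against Myh2, the first of these had no difference and the second had T8C and C23T, the same bases as in Myh1. A missing site says only that no change past the limits of the tables was listed.

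The reverse held for the 309 bp exon. Exon 33 of Myh4 carried the site, and its counterparts, exon 34 of Myh1 and exon 34 of Myh2, had none. Here the copies were less alike. Myh4 was identical to Myh1 at 82.2% of bases and to Myh2 at 81.9%, while Myh1 and Myh2 matched at 97.7%. The single GGAC of the Myh4 exon had no GGAC at the same place in Myh1 or Myh2, as the aligned windows show.
Myh4 exon 33, chr11:67256335-67256358, plus strand: agagcacgctGGACgccgagatcc
Myh1 exon 34, chr11:67220550-67220573, plus strand: agagcacgctggatgctgagatta
Myh2 exon 34, chr11:67193366-67193389, plus strand: agagcacgctggatgccgagatca
Written with the Myh4 base first, Myh1 differed by C14T, C17T, C23T and C24A, and Myh2 by C14T and C24A. The shared change C14T removes the last base of GGAC, and neither exon 34 held a GGAC anywhere. Myh8, the perinatal myosin, and Myh13, the extraocular one, also lacked GGAC at that place. Myh3, the embryonic myosin, kept it in its own exon 34, and had no site. The remaining long exons, 16 in Myh1, 16 in Myh2 and 15 in Myh4, held 3, 2 and 4 GGAC and had no site either. Thus the presence of GGAC alone did not separate long exons with a site from those without. All 7 exons with a site held at least 1, and so did 20 of the 24 without.

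**Figure D3:**
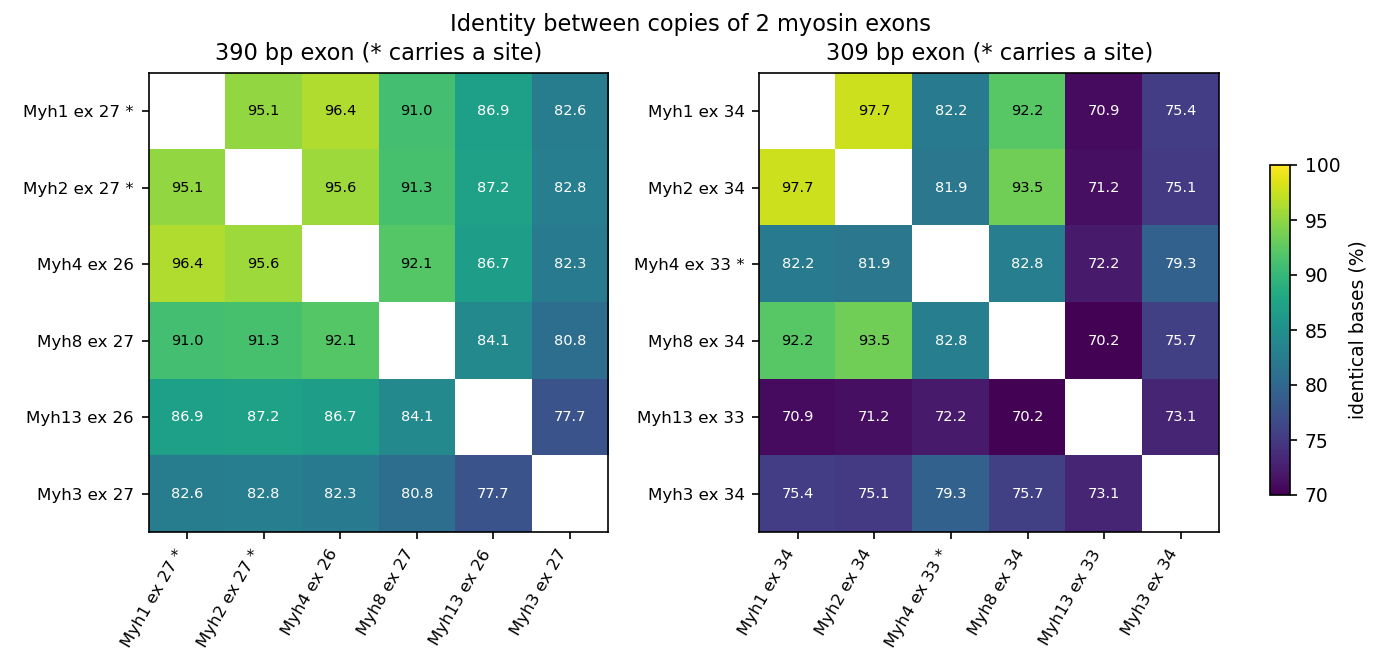
Percent of identical bases between copies of the 390 bp exon (left) and the 309 bp exon (right) in 6 skeletal muscle myosin genes, with a star on each copy that carries a site. The 390 bp copies of Myh1, Myh2 and Myh4 match at 95.1% to 96.4%, whereas Myh4 matches Myh1 and Myh2 at 82.2% and 81.9% in the 309 bp exon.

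A read that lies wholly in a stretch shared by several genes could come from any of them, so each site was cut into every possible window of 50 bases, which were looked up in all other annotated transcripts. In the Myh1 site, 63.0% of windows (215 of 341) occurred unchanged in another gene. In the Myh2 site, 57.2% (195 of 341) did. Most were shared between these 2 genes, 168 windows, followed for the Myh1 site by 128 in Myh4 and 96 in Myh8. None of the windows of the other 6 sites, that of Myh4 included, occurred in another gene. Over 576 other sites in a single exon, 70 (12.2%) shared any window. The share fell with length. Windows of 100 bases were shared at 10.7% in the Myh1 site and 16.8% in the Myh2 site, and the longest identical run between both exons was 122 bases. No window of 150 bases, the read length given in the methods of the study and tried after seeing the data, occurred in another gene for any of the 8 sites. Fragments shorter than the reads can still fall in a shared stretch, and how reads matching several genes were treated is not given in the sources used here.

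**Figure D4:**
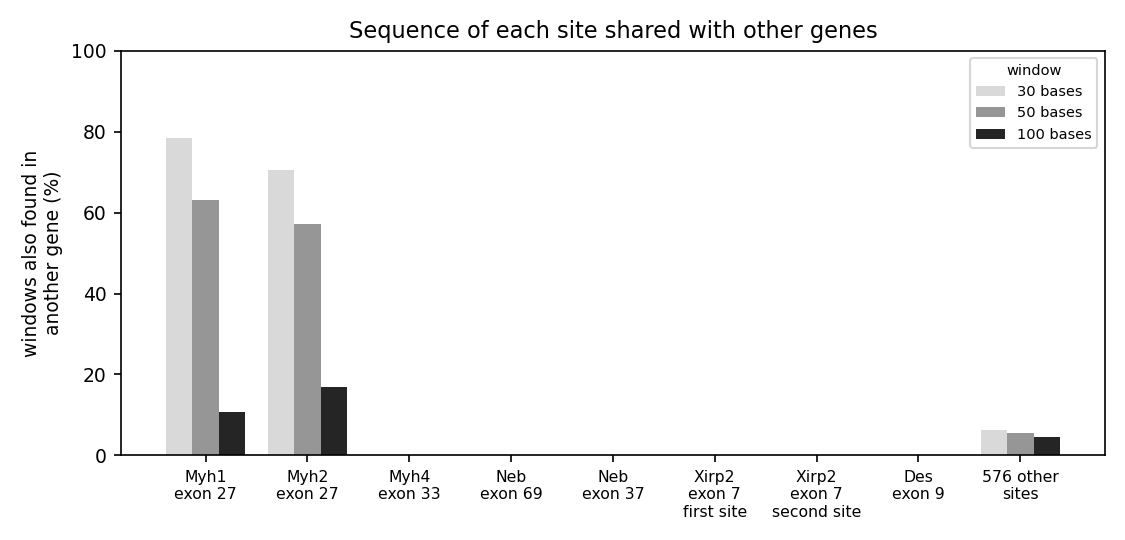
Percent of windows of 30, 50 and 100 bases in each site that occur unchanged in another gene, with 576 other sites of the series at the right. The Myh1 and Myh2 sites share 63.0% and 57.2% of their 50-base windows and 10.7% and 16.8% of their 100-base windows, and the other 6 sites share none.

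Nebulin repeats itself within 1 gene. Its 16 exons of 312 bp lie between exons 33 and 94, 4 exons apart in 14 of 15 steps, and encode part of the repeats that bind actin one after another along the filament. Both Neb sites were in this set. Exon 69 held 5 GGAC, the most of the 16, whose median was 3. Exon 37 held 2. The windows are shown because these exons carried the smallest and the largest fold.
Neb exon 69, chr2:52244107-52244130, minus strand: taagcagctgGGACaccacattgg
Neb exon 69, chr2:52244012-52244035, minus strand: agtacaagaaGGACtttgagaaat
Neb exon 69, chr2:52243973-52243996, minus strand: gcagcccagtGGACatgctggggg
Neb exon 69, chr2:52243919-52243942, minus strand: tcagcgatgtGGACtacaggaact
Neb exon 69, chr2:52243893-52243916, minus strand: ctacaccagtGGACatgtctacct
Neb exon 37, chr2:52287280-52287303, minus strand: gaagcctccaGGACgaccccaagt
Neb exon 37, chr2:52287139-52287162, minus strand: ggatggcccaGGACgtggctacca
In exon 69, 2 of the 5 GGAC continued as GGACT, and in exon 37 none did. The 2 exons also differed in how well they could be told from their neighbours. Exon 69 was identical to exon 57 at 92.3% of bases, and 14.4% of its 50-base windows (38 of 263) occurred in another exon of Neb. Exon 37 was at most 73.7% identical to any other of the 16, that one being exon 41, and shared no 50-base window with the rest of the gene. With 150 bases, neither exon shared a window. The exon with the fold of 169 was the one whose 50-base windows each had a single place in the gene. Whether this bears on the fold was not tested.

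**Figure D5:**
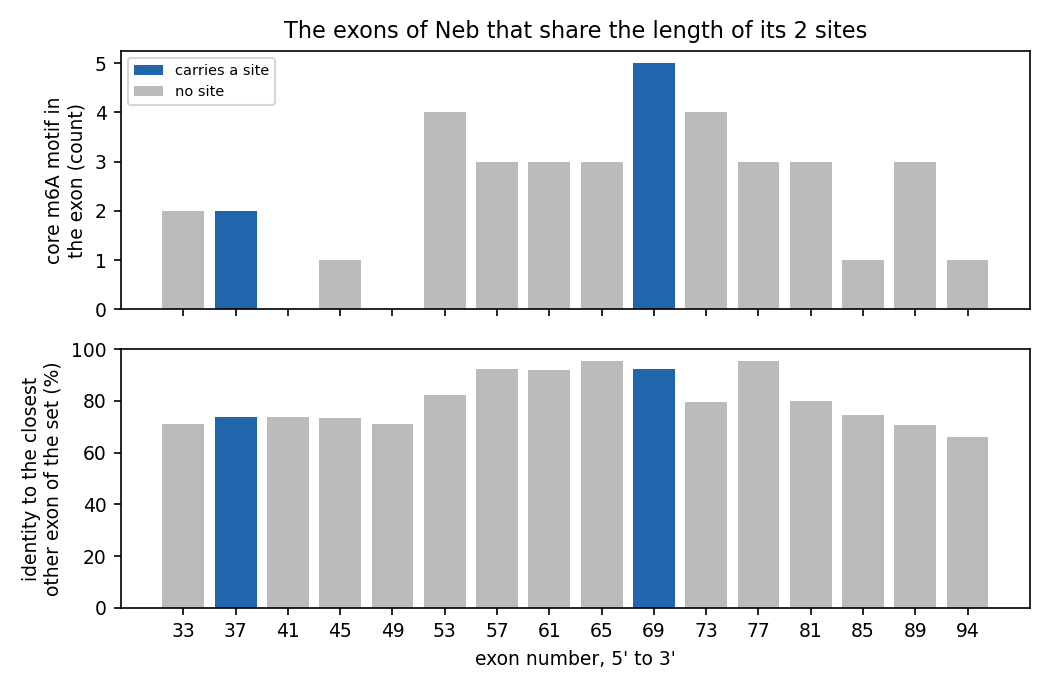
The 16 exons of 312 bp in Neb, 5′ to 3′, with the count of GGAC (top) and the identity to the closest other exon of the set (bottom), and the 2 exons with a site in blue. Exon 69 has the highest count, 5, and 92.3% identity to its closest copy, and exon 37 has 2 GGAC and 73.7%.

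The Xirp2 and Des sites held GGAC too, and they are shown to complete the set of sites outside the myosins and nebulin. The last Xirp2 window runs past the end of its site by its final bases.
Xirp2 first site, chr2:67512359-67512382, plus strand: aggagtcaggGGACagacagaaag
Xirp2 first site, chr2:67512448-67512471, plus strand: acaaatacaaGGACtgaaatcttg
Xirp2 second site, chr2:67512919-67512942, plus strand: atgggtatctGGACtgagagcaaa
Xirp2 second site, chr2:67513187-67513210, plus strand: agatcacaagGGACtttcagaagc
Des, chr1:75367674-75367697, plus strand: gcaggggcctGGACagaaacaata
Des, chr1:75367750-75367773, plus strand: gggggagtctGGACcgtgtcacac
The whole of exon 7 of Xirp2 held 24 GGAC, or 2.59 per kb. All 8 sites held GGAC on the transcribed strand, the only strand searched, as did 84.5% of the 576 other sites in a single exon and 79.7% of the 370 among them that were 309 to 499 bp long, as the 8 were. GGACT, whose matches all count as GGAC too, was in 3 of the 8 sites (37.5%), against 43.9% of the others. GGAC stood at 4.59 per kb in the fast myosin sites and 6.91 per kb in the filament and scaffold sites, against 4.47 per kb in the others. The differences in these motif shares and densities were not tested.

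Muscle tissue in or beside the pad is a possible source of these transcripts, and its other genes were looked up for that reason. The 5 lists of sarcomere and fibre genes hold 104 genes and leave out the members. A few of the genes, such as the non-muscle myosins Myh9 and Myh10, are also made outside striated muscle. Of the 104, 9 (8.65%) had a site, and all 9 had higher sites only, where 37.1% of genes with sites in 1 direction did. Over all 21877 coding genes of the annotation, 2.53% had a site and 0.905% had higher sites only. These lists were drawn up with the tables already known, so the counts are a description. Ttn, for titin, the giant spring of the sarcomere, had 28 sites with folds of 5.51 to 123 and a median of 11.9. Tpm1 and Tpm2, the tropomyosins that lie along actin, had 1 site each, with folds of 5.46 and 6.45. These 2 thin filament values lay at the lower end, beside Neb exon 69, whereas exon 37 of Neb, also a thin filament gene, stood at 169.

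The other 6 genes belong to calcium handling and energy supply of the fibre. Atp2a1, the calcium pump of fast fibres, had a fold of 16.8. Casq1, which stores calcium in the sarcoplasmic reticulum, had a fold of 8.19, and Trdn, which anchors it to the release channel, had 7.65. Folds over 100 were listed for Jph1 (212), which holds the calcium store against the membrane, for Srl (117), a protein of the sarcoplasmic reticulum, and for Pygm (136), the glycogen phosphorylase of muscle. Exon 37 of Neb, at 169, was in the range of these 3. Whether folds over 100 rest on a very low thermoneutral signal was not tested.

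Many genes of the muscle lists had no site. None of the 11 other myosin heavy chains had one, although all 11 have an exon of at least 300 bp. The 11 include embryonic (Myh3), perinatal (Myh8), extraocular (Myh13) and non-muscle (Myh9, Myh10) chains, and leave out the members Myh1, Myh2 and Myh4. The list of 26 genes for Z disc, costamere and intermediate filament leaves out the members Xirp2 and Des, which had sites. None of the 26 had a site, although 22 of them have an exon of at least 300 bp. Acta1, the skeletal actin, Ckm, the muscle creatine kinase, Ryr1, the calcium release channel, and Myod1 and Myog, regulators of muscle identity, had long exons and no site. Mylpf, Tnnt3, Tnni2, Tnnc2, Actn3 and Mybpc2 have no exon of 300 bp and no site. Of the 553 coding genes with a site, 547 (98.9%) had an exon of at least 300 bp, as did 91.2% of all 21877 coding genes. A gene without a site may be as abundant as one with a site, since the tables hold differences in signal and no levels.

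Markers of other cells of the pad were listed beside these. Of 16 smooth muscle and mural cell genes, which matter for Des, 1 (6.25%) had a site, Notch3, higher with a fold of 22.5. Of 10 adipocyte genes, 4 (40.0%) had a site, where 2.53% of all coding genes did. Both lists were drawn up with the tables already known, so these shares are a description and were not tested. Ucp1 (204), Dio2 (5 sites, up to 567.9) and Cidea (9.29) had higher sites and Lep had a lower one (4.96). Adipoq, Plin1, Fabp4, Cidec, Pparg and Lipe had none. The part of muscle tissue in the member values was not tested, because levels of these transcripts in the single libraries were not analysed here. More muscle in the cold pads, more muscle RNA made by cells of the pad and more methylation on the same RNA cannot be told apart from these tables.

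The position of genes on the other strand was checked as well. The Myh1 site lies within the span of the antisense gene Myhas, and both Xirp2 sites lie within the span of the antisense gene Gm13601, in each case between exons of the antisense gene. The other 5 sites overlapped no other annotated gene. Whether the counting used the strand is not given in the sources used here.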

How the data were processed

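MeRIP-seq libraries of iWAT were made with an anti-m6A antibody and sequenced as paired ends of 150 bp. According to the study's methods, reads were trimmed with cutadapt, aligned to mm10 with Hisat2, and differential sites were called with diffReps after MACS2 peak calling. In the submitters' processing notes the tools are Bowtie 0.12.2, HOMER and MACS2 and the builds mm10 and mm8, so the 2 sources name different aligners. Sites in these tables overlapped the named gene on GRCm38 (mm10) in 691 of 739 cases.

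The authors deposited, for each site, a fold (a linear ratio, cold over thermoneutral or its inverse, always above 1), a p-value, an FDR and a score that is −log10 of the p-value. The FDR was deposited by the authors beside the p-value and is not recomputed. No normalized signal of single libraries was analysed here, so depth, replicate spread and tests could not be given.

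These comparison columns were used as a list of sites. Each site was placed, by its midpoint, on the coding transcript with the longest coding sequence (GENCODE M21), with Python 3.11.15, pandas 2.3.3, numpy 2.4.6 and pysam 0.24.0. Starts were read as counted from 0 and are given from 1. Starts of the Xirp2 and Des sites lie on a 20 bp grid and may be 1 bp off. Motifs were searched on the transcribed strand. Window and identity steps were tested on simulated data. Exon copies were compared base by base without gaps.

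Members and lists were chosen with earlier results of these data known. All members are named, and of other genes those on the muscle, mural and adipocyte lists with a site, by their strongest site, and genes overlapping a member's site. Absent marker genes were named after their values were seen. No protein sequence was used here.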

Additional observations from a re-analysis of the deposited data

How the results depend on the processing

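A minimum fold of 8 left 6 of the 8 sites, and a p of at most 1e-07 left 1, exon 37 of Neb. Taking the strongest site of each gene raised the median fold of filament and scaffold genes to 9.05 and left that of the fast myosins at 11.6. Requiring GGACT in place of GGAC left 3 sites. The share of fast myosin windows found in another gene was 43.52% with 50 bases, 53.69% with 30, 10.1% with 100 and 0 with 150 (a length chosen after seeing the data), and that of filament and scaffold genes was 0 at each length. Without the genes of the muscle lists and the members, 35.2% of genes with sites in 1 direction were higher only. The choice of transcript and of the region holding most bases left 7 sites in coding sequence. No paired analysis was possible because no values of single libraries were analysed here, and leaving out a replicate was not run for the same reason.

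The limits of the tables (fold, p and a 300 bp minimum length) decide which sites are listed, so a gene or exon without a site is no evidence of equal methylation. Transcript amount was not separated from methylation in any fold. The Myh1 and Myh2 sites share stretches shorter than the reads with each other and with Myh4 and Myh8, and exon 69 of Neb shares stretches with other exons of the gene.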

Other observations

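Site names in the tables carry a number that rises along the genome, up to 20053, with 0 exceptions within a chromosome. Between the sites of Myh2 and Myh1, 3 numbers are not in the tables, between Myh1 and Myh4 there are 6, and between both Neb sites there are 6. The 2 Xirp2 sites have consecutive numbers. What the missing numbers stand for is not stated in the sources used here.

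Of the 29 sites in the tables that match a whole exon of the chosen transcript, 5 belong to Myh1, Myh2, Myh4 and Neb, 3 to Ttn and 21 to other genes. Median GC content was 58.7% over the fast myosin sites and 46.8% over the filament and scaffold sites, against 48.45% over the 576 other sites in a single exon.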
